A study of Mus musculus with 9 samples.

Results

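The heat shock chaperones described here are 10 genes chosen by symbol, Hspa1a, Hspa1b, Hspa8, Hsp90aa1, Hsp90ab1, Hspb1, Dnaja1, Dnajb1, Hsph1 and Hspe1. They are 10 of the 50559 genes in the deposited count files, and all 10 were among the 16618 genes that passed the low-count filter. RNA-Seq was performed on CD45+CD11b+ myeloid cells sorted from the quadriceps of mdx mice, which lack dystrophin and model Duchenne muscular dystrophy. All mice were 4.5 weeks old and had been treated for 7 days through the drinking water with vehicle, the mineralocorticoid receptor antagonist spironolactone, or the glucocorticoid prednisolone. Each group had 3 libraries, each library was a pool of cells from 3 mice, and both sexes were used in every group. Every group carried the mdx mutation and no healthy muscle was compared, so the levels below are those of dystrophic muscle only. Live and dead cells were not separated in the sort, and each P value measures the spread between pools rather than between single mice.

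Heat shock proteins are molecular chaperones that keep other proteins folded. HSP70 proteins bind exposed stretches of unfolded proteins in a cycle driven by ATP, J-domain proteins of the DNAJ family deliver clients and stimulate the ATPase, and HSP110 proteins exchange the nucleotide so that the client is released. Clients such as steroid receptors pass from HSP70 to HSP90, and both the glucocorticoid and the mineralocorticoid receptor are held by HSP90 in a form that can bind hormone. When unfolded proteins accumulate, heat shock factor 1 (HSF1) binds heat shock elements in the promoters of inducible chaperone genes, whereas constitutive relatives are made in unstressed cells.

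Promoter stretches of the 3 genes called in a comparison, Hspa1a, Hspa1b and Hsph1, are shown first, with that of Hspe1, which was not called, because its elements lie in 1 run. RefSeq windows (GRCm38.p6) of 250 bases before and 50 bases after the gene start were available for 7 of the 10 genes, and their GRCm39 positions were found by exact match. The letters GAANNTTC or TTCNNGAA, each of which reads the same on both strands, served as heat shock element. Of 32544 windows of all genes, 15.1% held at least 1 element, 1.97% held at least 2, and 0.252% held at least 3. The 150 bases before the start are printed 5′ to 3′ with elements in capitals for Hspa1a (chr17:35191133-35191282, minus strand), Hspa1b (chr17:35178215-35178364, minus strand), Hsph1 (chr5:149559802-149559951, minus strand) and Hspe1 (chr1:55127157-55127306, plus strand).
Hspa1a: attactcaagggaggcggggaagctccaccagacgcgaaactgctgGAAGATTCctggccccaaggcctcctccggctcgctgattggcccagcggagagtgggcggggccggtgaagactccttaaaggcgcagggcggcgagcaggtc
Hspa1b: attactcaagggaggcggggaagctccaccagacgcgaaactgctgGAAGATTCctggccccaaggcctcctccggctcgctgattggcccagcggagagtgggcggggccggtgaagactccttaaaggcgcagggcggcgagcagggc
Hsph1: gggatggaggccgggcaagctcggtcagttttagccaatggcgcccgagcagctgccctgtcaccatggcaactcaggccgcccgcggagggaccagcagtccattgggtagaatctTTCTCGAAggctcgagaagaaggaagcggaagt
Hspe1: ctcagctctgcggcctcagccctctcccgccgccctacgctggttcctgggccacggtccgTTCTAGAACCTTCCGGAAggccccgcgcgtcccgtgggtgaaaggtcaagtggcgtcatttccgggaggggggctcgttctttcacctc

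The Hspa1a and Hspa1b stretches differed at 1 of 150 bases, and over the full windows 296 of 300 bases were the same (98.7%). Each held 1 element, GAAGATTC, whose first base lay 104 bases before the start. The Hspe1 window held 3 elements that overlap or adjoin in 1 run, at 89, 84 and 79 bases before the start. Each of the 2 overlapping Hsph1 windows, which have different starts, also held 3. In the window used for the printed stretch, 1 lay 33 bases before the start, and the others began 37 and 42 bases after it. Hspb1 had GAAGTTTC 117 bases and GAACCTTC 97 bases before its start, Dnaja1 had 1 element in 1 of its 3 windows, and none was found in the Dnajb1 windows. In total 6 of the 7 genes with a window had at least 1 element. The core letters of a glucocorticoid response element, ACANNNTGT, were in none of the members' windows and in 6.83% of all windows. A match or its absence describes these letters in this window and says nothing about binding.

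Depth was alike in all libraries, with 31469815 to 32943512 counts on genes. The 13 markers of macrophages and monocytes summed to 20574 to 23752 in library-size scaled counts (CPM, normalized by the trimmed mean of M values, TMM) in the 9 libraries. Within this list, C1qb and C1qc were called higher and Itgam lower with spironolactone than with prednisolone (edgeR). Markers of other cells were present and differed between libraries. The 10 neutrophil markers summed to 756 to 4813 CPM with vehicle, 1352 to 3591 with spironolactone and 749 to 968 with prednisolone, and the 10 endothelial markers to 147 to 206, 232 to 359 and 128 to 176 CPM. In the same order, the 7 erythroid markers summed to 70.3 to 135, 187 to 306 and 37.1 to 79.7 CPM, and the 10 lymphocyte markers to 5.69 to 9.97, 12.3 to 19.6 and 4.86 to 8.32 CPM. The 10 fibro-adipogenic markers summed to 1104 to 1399.5, 1302 to 1765 and 1352 to 1402 CPM. All 10 were higher with spironolactone than with vehicle, 6 with an unadjusted P under 0.05 (edgeR), against 9.29% of all genes. DESeq2 called 2 of them, against 1.6% of all genes. In that comparison 9 of 10 endothelial, 7 of 9 skeletal muscle, 5 of 6 erythroid and 4 of 9 lymphocyte markers had such a P. So did 2 of 13 macrophage and monocyte and 0 of 10 neutrophil markers. Among the endothelial, skeletal muscle, erythroid and lymphocyte markers DESeq2 called 7, 5, 2 and 1, all higher. EdgeR and limma-voom called none in any of these lists. In the direct comparison of the drugs, edgeR called 6 of 10 endothelial, 4 of 6 erythroid, 4 of 9 lymphocyte and 1 of 9 skeletal muscle markers tested (Mb), all higher with spironolactone, against 2.38% of all genes called higher, and their part in the differences of the members was not tested. In such bulk samples, fewer cells of a type and less RNA per cell cannot be told apart. The strand setting of the counting is not given in the sources used here, so reads of genes that overlap on opposite strands could not be separated, which touches Hsp90ab1 (Slc35b2), Dnaja1 (Smu1), Hsph1 (Gm20005) and Hspe1 (Hspd1).

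Together the 10 transcripts made up 0.527% to 0.625% of the counts on genes. Levels per transcript length, as length-scaled values (TPM) with the length of the canonical GENCODE transcript, were compared between genes in the vehicle group. Hspa8 was highest at 3127 ± 124 TPM (SD, n = 3), followed by Hsp90ab1 at 1275 ± 47.7 TPM. Hspa1b (348 ± 31.1 TPM) and Hspa1a (309 ± 5.74 TPM) came next, and they differed by little more than the SD of Hspa1b. Hsp90aa1 (197 ± 9.997 TPM) and Hspe1 (155 ± 15.4 TPM) were intermediate. The lowest TPM levels were those of Dnaja1 (53.5 ± 4.32), Dnajb1 (44.1 ± 0.0923), Hsph1 (34.5 ± 2.90) and Hspb1 (19.4 ± 4.43). With the length of all exons in place of the canonical transcript, Hspa8 had 1507 TPM and was still first, while Dnajb1 (72.3 TPM) then stood above Dnaja1 (56.8 TPM).

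**Figure D1:**
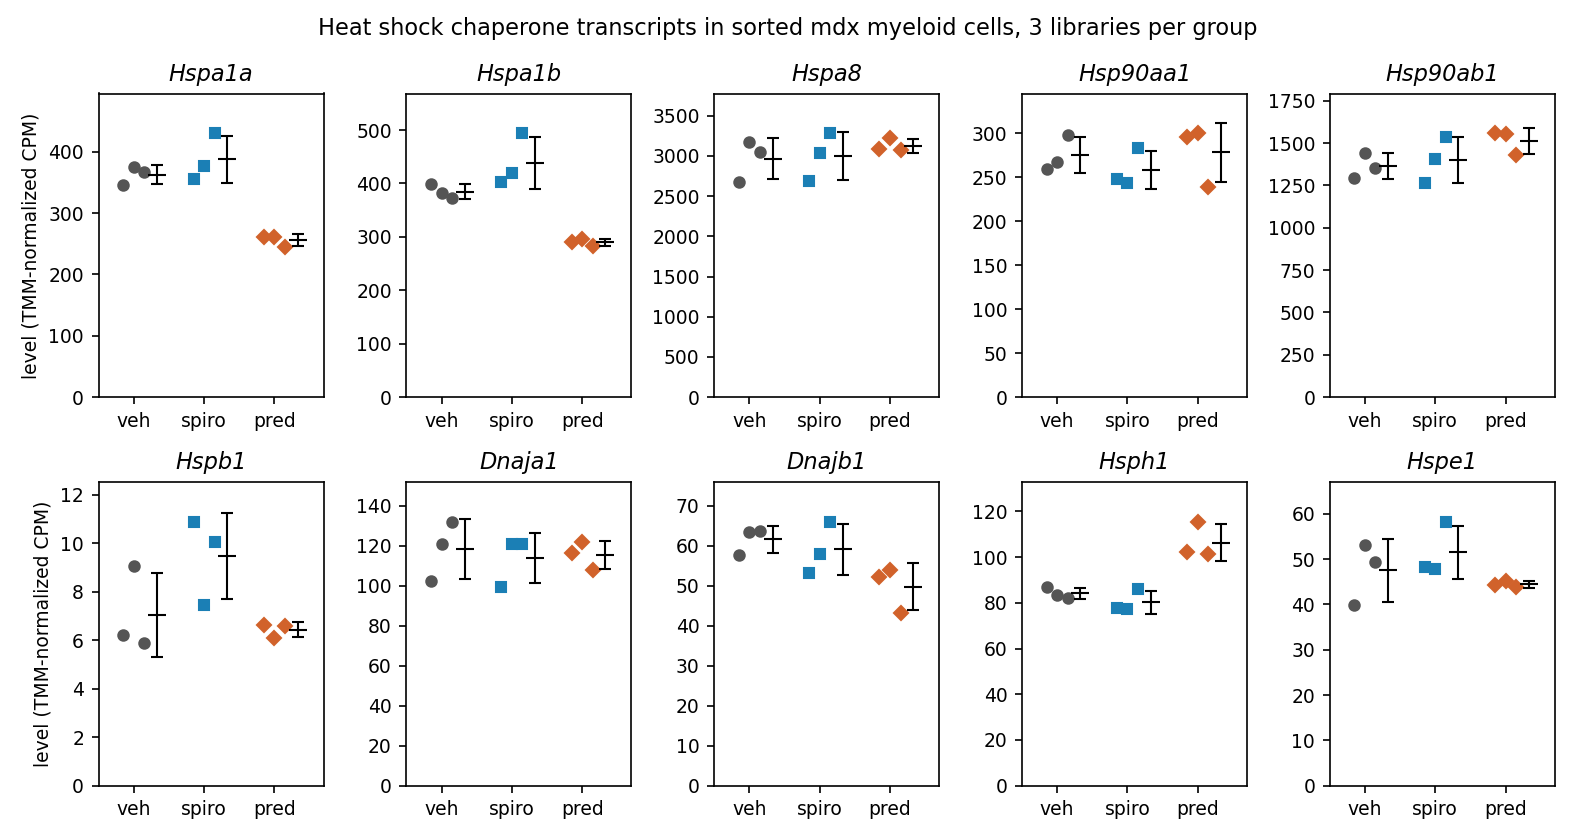
Level of each of the 10 chaperone transcripts in CPM (vertical axis, from 0) in every library with vehicle (circles), spironolactone (squares) and prednisolone (diamonds), with the mean and SD of each group of 3 beside the points. The prednisolone libraries lie below all vehicle libraries for Hspa1a, Hspa1b and Dnajb1 and above them for Hsph1.

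The first comparison asked which of these transcripts differed between prednisolone and vehicle. The 2 stress-inducible HSP70 genes, Hspa1a and Hspa1b, were lower with prednisolone, while the constitutive HSP70 Hspa8 and both cytosolic HSP90 genes were not called. With edgeR's quasi-likelihood test and a Benjamini-Hochberg adjusted P under 0.05, 2 of 10 members were called, both lower. Over all 16618 genes, 1.76% were called in this comparison and 0.758% were called lower. The median log2 fold change was -0.07 over the members and -0.01 over all genes.

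Hspa1a encodes a stress-inducible cytosolic HSP70. Its level was 345, 375 and 367 CPM in vehicle replicates 1 to 3 and 261, 261 and 245 CPM in prednisolone replicates 1 to 3. All prednisolone libraries lay below all vehicle libraries, and the log2 fold change was -0.50 ± 0.09 (SE; adjusted P = 0.0152, edgeR), a fold of 0.705. Hspa1b encodes a nearly identical HSP70 from a neighboring gene. It had 399, 381 and 373 CPM with vehicle and 290.4, 297 and 283 CPM with prednisolone, again without overlap. Its log2 fold change was -0.41 ± 0.09 (adjusted P = 0.0448, edgeR).

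Both calls rested on few pools. The Hspa1a call was lost without vehicle replicate 2 (adjusted P = 0.0693, edgeR) and without prednisolone replicate 1, 2 or 3 (0.0550, 0.0935 and 0.0798), and its log2 fold change stayed between -0.54 and -0.47 in all 9 fits that left out 1 library. Hspa1b lost its call without vehicle replicate 2 or 3 (0.129 and 0.0915), spironolactone replicate 2 (0.0723), or prednisolone replicate 1, 2 or 3 (0.138, 0.162 and 0.162), while its log2 fold change stayed between -0.42 and -0.38. It also lost it when library totals replaced TMM (0.0590) and with robust=FALSE (0.0536).

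The counts of this pair carry an uncertainty from sequence that both genes share. Of all 100-base windows of the Hspa1a transcript (GRCm39, chr17:35188166-35191132, minus strand), 47.1% occurred unchanged in Hspa1b, and within the coding sequence 68.3% did. For Hspa1b (chr17:35175412-35178214, minus strand) the shares were 49.9% and 68.1%. HTSeq sets aside reads that align to several places, so the counts come mainly from stretches in which the genes differ. TPM still divided these counts by the full transcript length. The TPM of both genes may therefore be too low, which also touches the shares and ratios that use them. Reads set aside for this reason made up 6.81% to 8.60% of all reads or pairs with vehicle, 9.42% to 10.4% with spironolactone and 7.17% to 9.43% with prednisolone. When both rows were summed before the fit, the log2 fold change was -0.45 (adjusted P = 0.0275, edgeR). Hspa1a made up 48.5% ± 1.86% of the counts of the pair with vehicle, 46.9% ± 0.418% with spironolactone and 46.8% ± 0.471% with prednisolone (SD, n = 3).

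Hspa8 encodes the constitutive cytosolic HSP70, HSC70. It had 2679, 3166 and 3051 CPM with vehicle and 3081, 3217 and 3071 CPM with prednisolone, so the groups overlapped (log2 fold change 0.07, 95% interval -0.15 to 0.30; adjusted P = 0.814, edgeR). Hspa1a and Hspa1b supplied 18.8%, 16.6% and 16.8% of the summed TPM of Hspa1a, Hspa1b and Hspa8 with vehicle. With prednisolone the share was 12.95%, 12.6% and 12.5%. The means were 17.4% ± 1.23% and 12.7% ± 0.227% (SD, n = 3), which restates the lower Hspa1a and Hspa1b beside the Hspa8 level. The share depends on the transcript length, and with the length of all exons it was 43.2% ± 2.08% and 34.5% ± 0.461%.

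Hsph1 encodes HSP110, a nucleotide exchange factor of HSP70, and its difference had the opposite sign. It had 87.0, 83.4 and 82.2 CPM with vehicle and 102, 116 and 101 CPM with prednisolone, without overlap. The log2 fold change was 0.34 ± 0.09, but the adjusted P of 0.0702 (edgeR) missed the threshold. DESeq2 on all libraries (adjusted P = 0.0165), which called 5.03% of all genes, or on both groups alone (0.0339) called it, as did edgeR without a low-count filter (0.0372) and edgeR without vehicle replicate 1 (0.0328). Per TPM of Hspa1a and Hspa1b there were 0.0526 ± 0.00160 TPM of Hsph1 with vehicle and 0.0907 ± 0.00518 with prednisolone (SD, n = 3). With the length of all exons the ratios were 0.0292 and 0.0504. This ratio combines the differences already given for these genes and is no separate support.

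The J-domain genes were compared next. Dnajb1, which encodes HSP40 and is itself inducible by heat, had 57.8, 63.4 and 63.8 CPM with vehicle and 52.1, 54.1 and 43.2 CPM with prednisolone. The groups did not overlap, but the log2 fold change of -0.31 ± 0.11 did not pass (95% interval -0.54 to -0.08; adjusted P = 0.188, edgeR). Dnaja1, another cytosolic J-domain protein, had 102, 121 and 132 CPM with vehicle and 116, 122 and 108 CPM with prednisolone (log2 fold change -0.04, 95% interval -0.27 to 0.20).

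The HSP90 genes, the small heat shock protein and the mitochondrial cochaperonin were not called in this comparison. Hsp90ab1, the constitutive cytosolic HSP90, had 1294, 1444 and 1352 CPM with vehicle and 1559, 1553 and 1427 CPM with prednisolone (log2 fold change 0.15, 95% interval -0.06 to 0.36). Hsp90aa1, the more inducible form, had 259, 267 and 298 CPM with vehicle and 295, 300.02 and 239 CPM with prednisolone (0.02, interval -0.21 to 0.25). In both genes at least 1 prednisolone library lay within the vehicle range. Hspb1, which encodes HSP27, a small heat shock protein that binds unfolded proteins without ATP, was low at 6.20, 9.05 and 5.89 CPM against 6.62, 6.08 and 6.59 CPM (-0.13, interval -0.56 to 0.29). Hspe1, which encodes the HSP10 lid of the mitochondrial HSP60 chamber, had 39.9, 53.2 and 49.4 CPM with vehicle and 44.2, 45.3 and 43.7 CPM with prednisolone (-0.10, interval -0.34 to 0.15). In all, the groups did not overlap for 4 of 10 members (Hspa1a, Hspa1b, Dnajb1 and Hsph1), against 19.7% of all genes.

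**Figure D2:**
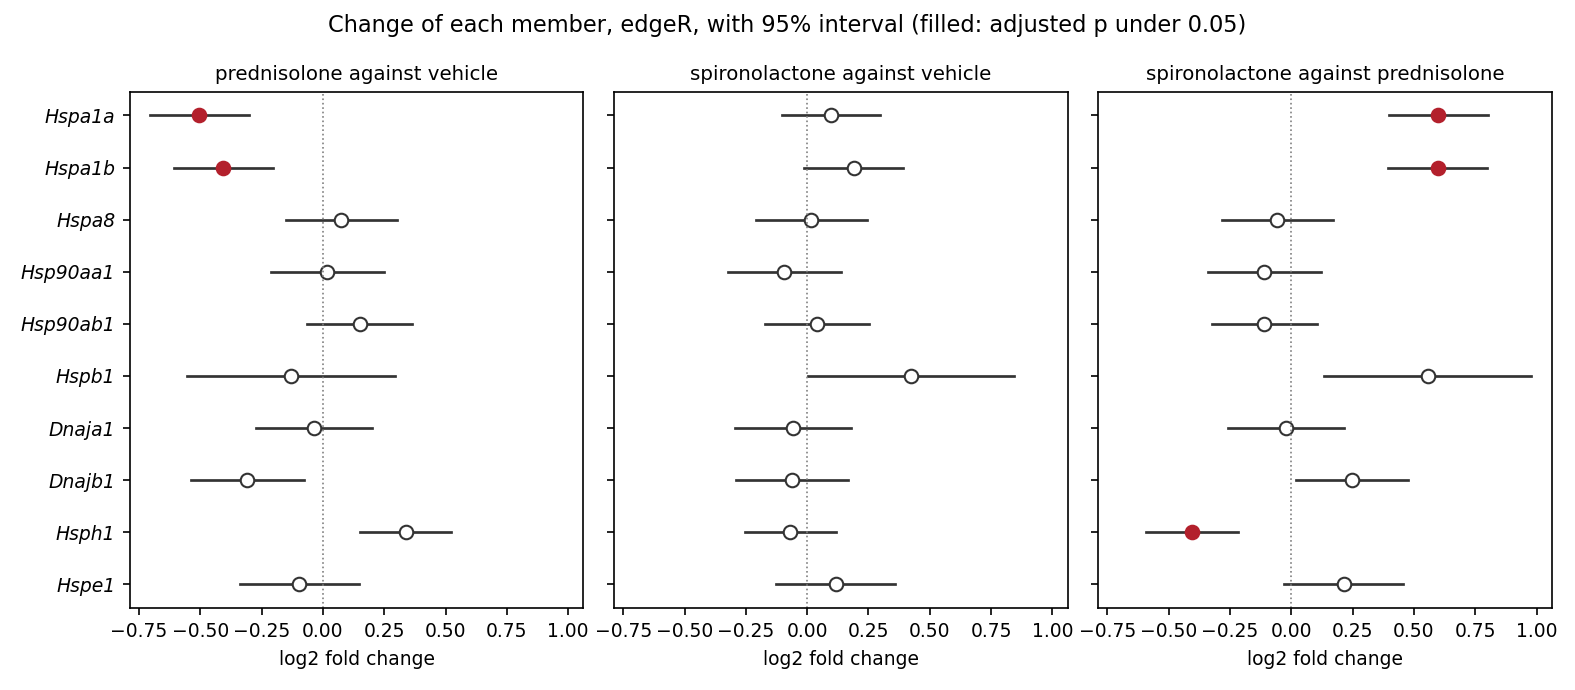
Log2 fold change of each member (points) with its 95% interval (lines) from edgeR in the 3 comparisons, with filled points for an adjusted P under 0.05. With prednisolone against vehicle the intervals of Hspa1a, Hspa1b and Dnajb1 lie below 0 and that of Hsph1 above 0, and of these 4 only Hspa1a and Hspa1b were called.

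The second comparison asked the same of spironolactone against vehicle, and it shares the vehicle libraries with the first. No member was called by edgeR, DESeq2 (on all libraries or on both groups) or limma-voom. In edgeR, 1 of 10 members had an unadjusted P under 0.05, against 9.29% of all genes. Over all genes, 0.0181% were called by edgeR and 1.6% by DESeq2 on all libraries. The median log2 fold change was 0.03 over the members.

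Hspa1a had 355, 377 and 430.1 CPM with spironolactone, which overlapped the vehicle range (log2 fold change 0.10, 95% interval -0.10 to 0.30). Hspa1b had 402, 419 and 494 CPM, and all 3 lay above the vehicle libraries (0.19 ± 0.09; adjusted P = 0.572, edgeR). It was the only member whose groups did not overlap, against 13.5% of all genes, and none was without overlap when CPM were taken from library totals. The share of Hspa1a and Hspa1b in the TPM of the 3 HSP70 genes was 18.6% ± 0.617% with spironolactone (SD, n = 3), within the vehicle range for 1 of 3 libraries.

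Hspb1 was the member with the unadjusted P under 0.05. Its level was 10.9, 7.46 and 10.04 CPM with spironolactone, and 2 of the 3 libraries lay above all vehicle libraries. The log2 fold change was 0.43 ± 0.20 (unadjusted P = 0.0477, adjusted P = 0.532, edgeR). Hspb1 is also expressed by endothelial and muscle cells. Among the spironolactone libraries, the endothelial markers summed to 359, 232 and 294 CPM, against 147, 180 and 206 with vehicle. The 10 skeletal muscle markers summed to 480, 389 and 662 CPM, against 206, 320 and 314 with vehicle and 361, 490 and 320 with prednisolone. The part of these cells in the Hspb1 level was not tested. Other small heat shock protein genes had the same sign, since all 5 that passed the filter were higher with spironolactone than with vehicle. None was called by edgeR or limma-voom, while 4 had an unadjusted P under 0.05 (9.29% of all genes did) and DESeq2 called 3 (1.6% of all genes). With prednisolone 4 of the 5 were also higher than with vehicle, 3 with an unadjusted P under 0.05 (14.2% of all genes did), and DESeq2 called 1 (5.03% of all genes). Of 9 muscle markers tested, 7 were higher with prednisolone than with vehicle, 2 with an unadjusted P under 0.05 (14.2% of all genes). EdgeR called 1, Myh1 (1.07 ± 0.22; adjusted P = 0.0239), against 1.76% of all genes, and DESeq2 called 1. With spironolactone all 9 were higher than with vehicle, 7 with an unadjusted P under 0.05 (9.29% of all genes). DESeq2 called 5 of these (1.6% of all genes), and edgeR and limma-voom called none. The part of muscle cells in the list of other small heat shock protein genes was not tested. The list summed to 34.4 to 41.5 CPM with vehicle, 50.4 to 77.0 with spironolactone and 47.0 to 58.3 with prednisolone. None of the 5 was called between the drugs by edgeR, DESeq2 or limma-voom, and none had an unadjusted P under 0.05 there. Hspb6 had 16.4 ± 1.38 CPM with vehicle and 26.7 ± 8.34 with spironolactone, and Cryab, which encodes alpha B-crystallin, had 7.90 ± 0.0703 and 12.2 ± 3.94 CPM (SD, n = 3).

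The remaining members gave intervals that included 0. Hsph1 had 77.6, 77.3 and 86.1 CPM with spironolactone (log2 fold change -0.07, 95% interval -0.25 to 0.12), and Dnajb1 had 53.3, 57.9 and 66.0 CPM (-0.06, interval -0.29 to 0.17). For Dnaja1 the values were 99.4, 121 and 121 CPM (-0.06, interval -0.29 to 0.18). Hspa8 had 2686, 3032 and 3282 CPM (0.02, interval -0.21 to 0.24). Among the HSP90 genes, Hsp90ab1 had 1264, 1405 and 1537 CPM (0.04, interval -0.17 to 0.25) and Hsp90aa1 had 248, 243 and 283 CPM (-0.09, interval -0.32 to 0.14). Hspe1 had 48.3, 47.8 and 58.3 CPM (0.12, interval -0.13 to 0.36).

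The third comparison set spironolactone directly against prednisolone. It called 3 of 10 members, Hspa1a and Hspa1b higher and Hsph1 lower with spironolactone. Over all genes 5.17% were called, 2.38% higher and 2.79% lower. The log2 fold change was 0.60 ± 0.09 for Hspa1a (adjusted P = 0.00366, edgeR) and 0.60 ± 0.09 for Hspa1b (adjusted P = 0.00398), folds of 1.52 and 1.51. Both calls were kept in all 9 fits that left out 1 library, with adjusted P up to 0.0258 and 0.0267. With both rows summed, the log2 fold change was 0.60 (adjusted P = 0.00388, edgeR).

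Hsph1 was lower with spironolactone than with prednisolone, with a log2 fold change of -0.41 ± 0.09 (adjusted P = 0.0185, edgeR). This call was lost without spironolactone replicate 2 (0.0727) and without prednisolone replicate 2 (0.0949), while the log2 fold change stayed between -0.46 and -0.34 in the 9 fits that left out 1 library. Per TPM of Hspa1a and Hspa1b there were 0.0454 ± 0.00218 TPM of Hsph1 with spironolactone, against 0.0907 ± 0.00518 with prednisolone (SD, n = 3). Hspb1 (0.56 ± 0.20; adjusted P = 0.111, edgeR) and Hspe1 (0.21 ± 0.11; 0.286) were higher with spironolactone in all libraries without passing. DESeq2 on both groups alone called Hspb1 (adjusted P = 0.0454). Dnajb1 (0.25 ± 0.11; 0.188) overlapped. In all, 5 members did not overlap between the drugs, against 30.3% of all genes.

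**Figure D3:**
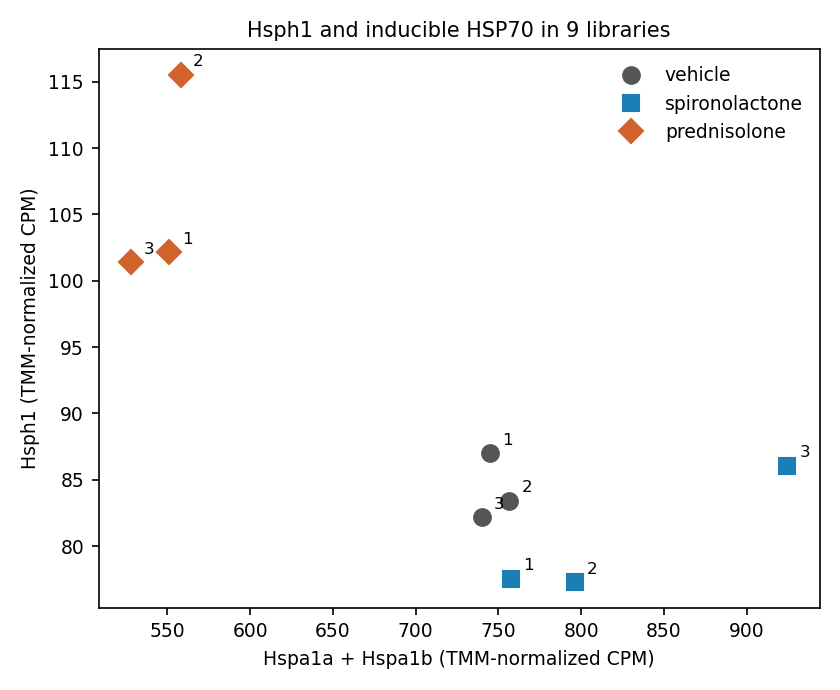
Hsph1 (vertical axis) against the sum of Hspa1a and Hspa1b (horizontal axis), both in CPM, in each of the 9 libraries, with the replicate number beside each point. The 3 prednisolone libraries stand apart, with higher Hsph1 and lower Hspa1a and Hspa1b than every vehicle and spironolactone library.

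The members did not vary as 1 group. Over the 9 libraries, which share the group differences above, the 45 pairs of members had a median Pearson r of 0.27 on log2 CPM. The highest was 0.97 between Hspa1a and Hspa1b and the lowest -0.84 between Hspa1a and Hsph1. Hspa8 and Hsp90ab1, the most abundant constitutive forms, had r = 0.87, and Hspa1a and Dnajb1 had r = 0.85. The genes most like the mean standardized level of the members were Rtraf, Ppp1r14b, Dnajc2, Mrpl20 and Mon1a, with r of 0.93 to 0.95 over 9 libraries among 8651 candidates.

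The other parts of the chaperone network were examined to place the members. In the comparison of prednisolone with vehicle, and in that of spironolactone with vehicle, none of the 103 genes tested in 8 other chaperone lists was called by edgeR or limma-voom. With prednisolone 11 of them had an unadjusted P under 0.05, against 14.2% of all genes, and DESeq2 called 2, against 5.03%. With spironolactone 9 did, against 9.29% of all genes, and DESeq2 called 5, against 1.6%. Hsf1 had 55.6 ± 2.03 CPM with vehicle, 53.5 ± 3.71 with spironolactone and 56.7 ± 3.89 with prednisolone (SD, n = 3). Bag3, a cochaperone of HSP70 that is itself a target of HSF1, had 111 ± 12.5, 106 ± 6.47 and 113 ± 8.06 CPM in the same order. Hsbp1, which encodes a binding partner of HSF1, had 103 ± 6.21, 115 ± 3.63 and 102 ± 1.91 CPM.

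Among the other HSP70 and HSP110 genes, edgeR called 2 of 8 in the direct comparison of the drugs, against 5.17% of all genes, both lower with spironolactone. In that comparison limma-voom called 1. DESeq2 called 3, 1 of them higher with spironolactone, against 10.1% of all genes. Hspa4l, an HSP110 relative of Hsph1, had 27.4 ± 0.728 CPM with vehicle, 24.6 ± 0.454 with spironolactone and 36.2 ± 5.29 with prednisolone (log2 fold change -0.56 ± 0.11; adjusted P = 0.0105, edgeR). Hspa13, an HSP70-like ATPase of microsomes, had 30.1 ± 3.51, 26.6 ± 1.67 and 34.6 ± 0.864 CPM (-0.38 ± 0.10; 0.0469). Hspa4, the most abundant of this list, had 182 ± 6.84, 168 ± 6.25 and 183 ± 18.2 CPM, and Hspa14 had 30.4 ± 1.76, 30.6 ± 1.18 and 30.7 ± 0.833 CPM.

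None of 19 other DNAJ genes, 25 cochaperones or 10 mitochondrial chaperones was called in any comparison by edgeR or limma-voom. In these 54 genes, unadjusted P values under 0.05 numbered 3 for prednisolone against vehicle, 3 for spironolactone against vehicle and 8 between the drugs, where the shares of all genes were 14.2%, 9.29% and 22.5%. DESeq2 called 0, 1 and 2 of them, and 10.1% of all genes between the drugs. The most abundant DNAJ genes, Dnajc13 and Dnajc5, had 137 ± 24.8 and 131 ± 12.01 CPM with vehicle, and the most abundant cochaperones, Bag6 and St13, had 282 ± 22.5 and 187 ± 11.7 CPM. Hspd1, which encodes the HSP60 partner of HSP10 and shares a promoter region with Hspe1, had 111 ± 8.46 CPM with vehicle, 103 ± 6.48 with spironolactone and 115 ± 9.69 with prednisolone. Hspa9, the mitochondrial HSP70, had 136 ± 4.72, 122 ± 4.57 and 147 ± 4.40 CPM (SD, n = 3). In the endoplasmic reticulum, Hspa5, which encodes the HSP70 BiP, had 1185 ± 74.0, 1134 ± 60.0 and 990 ± 63.6 CPM, with a log2 fold change of -0.26 ± 0.09 for prednisolone against vehicle (adjusted P = 0.209, edgeR). Calr, which encodes calreticulin, had 1565 ± 41.1, 1664 ± 60.5 and 1522 ± 163 CPM. Between the drugs, edgeR called 1 of 17 endoplasmic reticulum genes, against 5.17% of all genes, and DESeq2 called 2, against 10.1%. The edgeR call was Dnajc10, lower with spironolactone than with prednisolone (-0.38 ± 0.08; adjusted P = 0.0232, edgeR). Of 14 TRiC and prefoldin genes, edgeR called 1 between the drugs, against 5.17% of all genes. This was Pfdn1, a prefoldin subunit, higher with spironolactone than with prednisolone (0.47 ± 0.11; adjusted P = 0.0321, edgeR). The abundant TRiC subunits Cct5 and Cct2 had 190 ± 19.2 and 160 ± 11.2 CPM with vehicle.

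**Figure D4:**
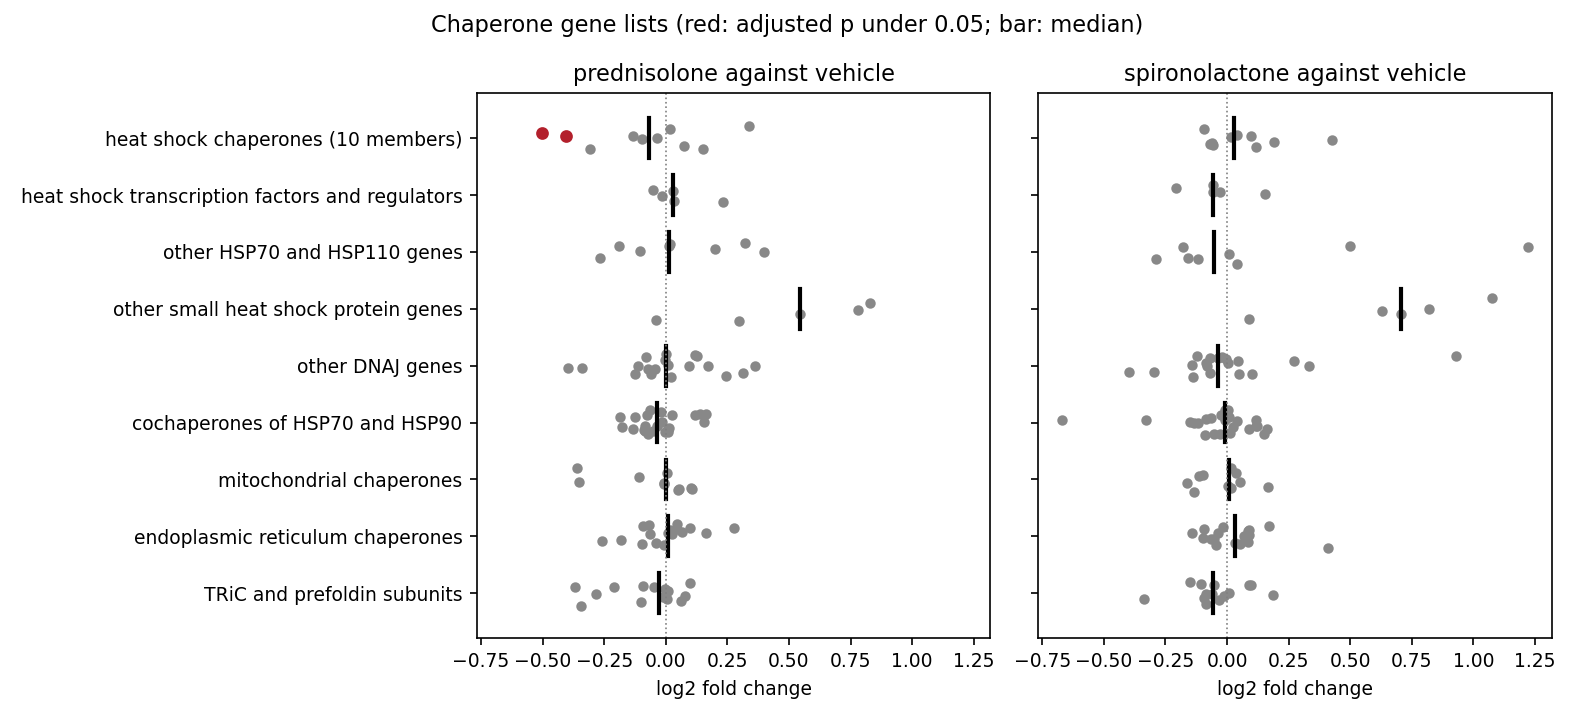
Log2 fold changes (horizontal axis) of the members and of 8 other chaperone lists for prednisolone against vehicle (left) and spironolactone against vehicle (right), with 1 point per gene, red for an adjusted P under 0.05, and a bar at the median of each list. Hspa1a and Hspa1b are the only red points.

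The receptors that HSP90 holds were measured in the same libraries. Nr3c1, which encodes the glucocorticoid receptor, had 94.2 ± 1.33 CPM with vehicle, 86.8 ± 8.01 with spironolactone and 92.9 ± 6.08 with prednisolone (SD, n = 3). Nr3c2, which encodes the mineralocorticoid receptor, stayed below 1 CPM in all 9 libraries. Of the immunophilins that bind HSP90 in receptor complexes, Fkbp4 had 71.0 ± 4.28, 77.2 ± 8.97 and 78.9 ± 4.47 CPM, and Fkbp5, also a glucocorticoid target, had 63.8 ± 12.1, 40.1 ± 5.75 and 56.1 ± 5.20 CPM. Among 11 genes known to be induced by glucocorticoids, edgeR called none higher with prednisolone than with vehicle and 1 lower, the clock gene Per1 (-1.22 ± 0.17; adjusted P = 0.00436), against 0.758% of all genes called lower. In this list 7 had an unadjusted P under 0.05 (14.2% of all genes), limma-voom called 1, and DESeq2 called 5 (5.03% of all genes), of which 1 was higher. The median log2 fold change of the list was -0.33 with prednisolone and -0.41 with spironolactone, both against the same vehicle libraries. Each drug had 8 of 11 lower, but not the same 8. Cd163 and Errfi1 were lower with spironolactone alone, and Zbtb16 and Mt1 with prednisolone alone. With spironolactone edgeR and limma-voom called none, 6 had an unadjusted P under 0.05 (9.29% of all genes), and DESeq2 called 3 (1.6%). Tsc22d3, which encodes GILZ, had 156 ± 10.4 CPM with vehicle, 121 ± 31.6 with spironolactone and 101 ± 11.5 with prednisolone. Its log2 fold change for prednisolone against vehicle was -0.64 ± 0.16 (adjusted P = 0.0675, edgeR). The most abundant of this list, Sgk1 and Mt1, had 357 ± 76.8 and 174 ± 11.4 CPM with vehicle. Between the drugs, Zbtb16 was higher with spironolactone (0.73 ± 0.19; 0.0377), and Errfi1 (-0.59 ± 0.13; 0.0179) and Cd163 (-0.92 ± 0.23; 0.0448) were lower.

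Immediate early genes are known to be induced, along with Hspa1a and Hspa1b, when cells are dissociated from tissue, and they were examined in the same comparisons. Of 18 genes in this list, 17 were lower with prednisolone than with vehicle, and 6 were called by edgeR, all lower, against 0.758% of all genes. The called genes included Atf3 (-1.07 ± 0.15; adjusted P = 0.00455, edgeR), Jun (-1.06 ± 0.16; 0.00661), Junb (-0.68 ± 0.13; 0.0169), Dusp1 (-0.70 ± 0.15; 0.0295) and Zfp36 (-0.66 ± 0.14; 0.0337). Fos had -0.61 ± 0.15 (0.0518). Against vehicle, all 18 were lower with spironolactone. None of these was called by edgeR or limma-voom, 10 had an unadjusted P under 0.05, against 9.29% of all genes, and DESeq2 called 3, against 1.6%. Between the drugs, 9 were higher and 9 lower with spironolactone. EdgeR called 2, Jun (0.84 ± 0.16; 0.0125) and Atf3 (0.63 ± 0.15; 0.0352), both higher with spironolactone, against 2.38% of all genes.

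The list summed to 15526, 14971 and 15569 CPM with vehicle, 11452, 12091 and 11978 CPM with spironolactone, and 12154, 10266 and 8042 CPM with prednisolone. Both drugs thus had lower sums than vehicle in every library. Prednisolone replicate 1 lay just above the spironolactone libraries, and replicates 2 and 3 lay below all of them. Hspa1a and Hspa1b together had 745, 756 and 740 CPM with vehicle, 757, 796 and 924 CPM with spironolactone, and 551, 558 and 528 CPM with prednisolone. The pair was below the vehicle libraries with prednisolone alone, and the immediate early sum with both drugs. Genes within the sum differed in this. Against vehicle, Jun had a log2 fold change of -1.06 ± 0.16 with prednisolone and -0.22 ± 0.16 with spironolactone. For Klf6 the values were -0.47 ± 0.11 and -0.50 ± 0.11. The part of dissociation in either level was not tested.

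**Figure D5:**
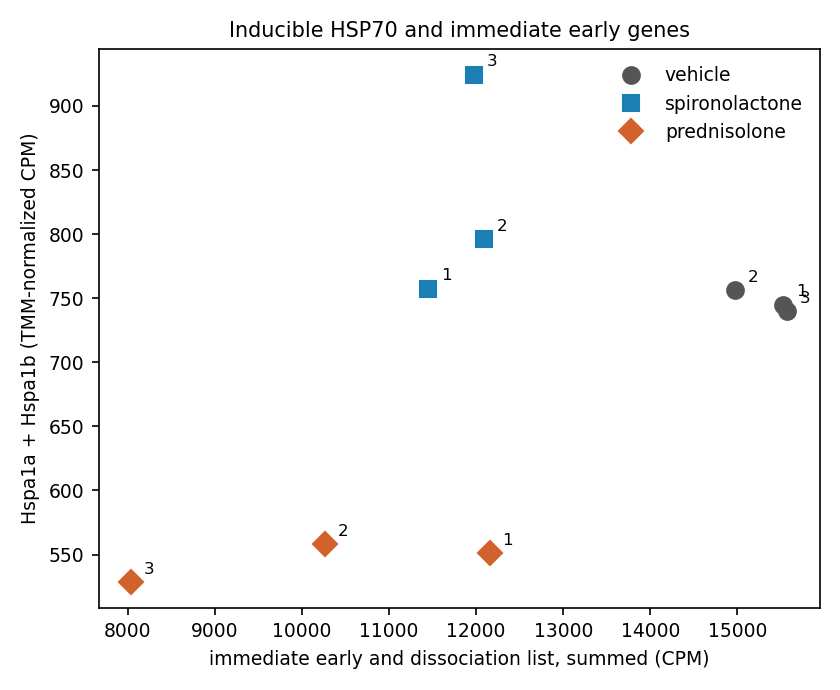
Sum of Hspa1a and Hspa1b (vertical axis, CPM) against the sum of 18 immediate early and dissociation genes (horizontal axis, CPM) in each of the 9 libraries, with the replicate number beside each point. On the horizontal axis prednisolone replicate 1 (12154 CPM) lies just above the highest spironolactone library (12091 CPM) and replicates 2 and 3 (10266 and 8042 CPM) lie below all of them, while on the vertical axis all 3 prednisolone libraries lie below every other library.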

How the data were processed

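CD45+CD11b+ cells were sorted from digested quadriceps, and RNA was sequenced on the DNBseq platform. Per the submitters' processing notes, reads were handled with HISAT2 2.2.1, HTSeq 0.11.3 and DESeq2 1.32.0 on mm39. The deposited values are raw counts per gene, made by the authors without normalization. The annotation release and strand setting are not given in the sources used here. Lines that name no gene held 17.2% to 21.8% of each library and were left out. The authors' tables of fold changes and P values for the 3 comparisons were not used.

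Counts of all 9 libraries were fitted in 1 model with edgeR 4.0.16 in R 4.3.3 (TMM, glmQLFit with robust=TRUE, glmQLFTest, two-sided). Genes passed filterByExpr (minimum count 10, minimum total 15), P values were adjusted over all 16618 genes by Benjamini-Hochberg, and the threshold was 0.05. TMM factors were 0.980 to 1.03, and the common biological coefficient of variation was 0.170. TPM used canonical GENCODE transcript lengths on GRCm39, which covered at least 90.9% of counts. Scripts were tested on simulated data.

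Alternatives were DESeq2 1.42.0, limma-voom (limma 3.58.1), edgeR on the groups compared, other normalizations and filters, robust=FALSE, a replicate block, Hspa1a and Hspa1b as 1 row, a threshold of 0.1, and leaving out each library. Members and lists were chosen with earlier results of these data known. All members are named, with, from each other list that holds no cell type markers, up to 4 called genes, its pair of most abundant genes, and 11 genes fixed by name. The marker genes C1qb, C1qc, Itgam, Mb and Myh1 were named after their values were seen, and the length of all exons for the TPM ratios was an alternative chosen after seeing the data. The 5 genes most like the members had a mean CPM of at least 10.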

Additional observations from a re-analysis of the deposited data

How the results depend on the processing

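Of the 10 members, 2 were called for prednisolone against vehicle. The number was 1 with library totals, with robust=FALSE, and with a replicate block, and 1 with Hspa1a and Hspa1b in 1 row, which merges both called members. It was 3 with DESeq2 on all libraries or on the groups compared and without a low-count filter, where Hsph1 was added, and 0 to 3 over the fits that left out 1 library. With the replicate block Hspa1b had an adjusted P of 0.0521. Same-numbered libraries had correlations of deviations between -0.04 and 0.15 and others between -0.17 and 0.04, so the numbers were not taken to pair libraries. No log2 fold change of a single member that was called reversed its sign in any alternative. Calls over all genes depended more on the method. For prednisolone against vehicle, spironolactone against vehicle, and spironolactone against prednisolone they were 293, 3 and 859 in edgeR, 686, 263 and 1594 in DESeq2 on all libraries, 640, 237 and 2045 in DESeq2 on the groups compared, 239, 4 and 1598 in edgeR on the groups compared, and 1019, 528 and 1940 without a low-count filter. With limma-voom or robust=FALSE, spironolactone against vehicle had 0, and with the replicate block it had 8. Leaving out 1 library gave 69 to 826, 0 to 34 and 232 to 1898. Hspb1, with 189 to 344 counts per library, is the member with the largest relative counting error.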
